A study of Rattus norvegicus with 24 samples.

Results

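Of 32883 gene IDs counted in rat left ventricle, 70 were low in untreated infarcts relative to sham hearts and less low in infarcts that carried a patch, whichever of 2 ways the patch was held in place. The libraries came from Sprague Dawley rats, an outbred laboratory strain, and the study asked what a patch anchored by microneedles modelled on a bee's sting does in the infarcted heart. The Sham group (n = 6) is the operated control without an infarct, the MI group (n = 6) had a myocardial infarction and no patch, the Sutured patch group (n = 6) had an infarct and a patch fixed by sutures, and the Microneedle patch group (n = 6) had an infarct and a patch that locks itself into the tissue. Per the labels, infarct tissue was collected at day 7 after infarction and patch placement; the labels do not say which piece of the ventricle the Sham RNA came from, how Sham surgery was done, or whether each library is a separate rat. Probability values therefore describe the spread between these libraries only.

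An infarct forms when a coronary artery is blocked and the heart muscle it feeds dies. In the following days inflammatory cells clear the dead muscle, fibroblasts fill the gap with scar, and muscle cells make up a smaller part of the tissue. Transcripts of muscle and of its energy metabolism are therefore typically lower in infarct tissue than in healthy ventricle, and a cardiac patch is meant to support the wall mechanically while the scar forms. In bulk tissue, fewer cells of a type and less RNA per cell cannot be told apart. The count table identifies genes by Ensembl ID alone, and the tables used here pair none of those IDs with a symbol, so the members are described by their levels and not by their functions. For the same reason the defining markers of ventricle and of other cell types were not checked, and their part in every result below was not tested.

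The members were chosen on group means of CPM (a gene's reads per 1000000 counted reads of its library). A member had a Sham mean of at least 2 CPM and at least 2 times the MI mean, and both patch means were at least 1.5 times the MI mean but below 2 times the Sham mean. The 100 genes highest in Sham were left out, which removed 0 genes that met the other criteria. The ratios of Sham and of each patch to MI, and the bounds against Sham, are thus values that chose the members; they are given as descriptions. All 3 ratios to MI share the 6 MI libraries, so a low MI mean raises all of them together.

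The libraries differed in depth by group. Every Sham library was shallower (5443782 to 11757562 counts) than every infarct library (12574300 to 14552623 counts), so depth and the Sham group cannot be told apart. Sham replicates 4 and 5 stood apart with the fewest detected genes (14079 and 13635), and replicate 5 was also the shallowest library. With both left out, 61 genes met the rule, of which 52 were members.

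Of the 12487 genes with a Sham mean of at least 2 CPM, 1662 (13.3%) had at least 2 times the MI mean in Sham. Among those 1662 infarct-lowered genes, 203 (12.2%) reached 1.5 times MI in the sutured patch group, 124 (7.46%) did so in the microneedle patch group, and 76 (4.57%) did so in both. Across all 12487 genes, whatever their level in MI, 7.62% reached 1.5 times MI in the sutured patch group, 8.10% in the microneedle patch group and 3.97% (496) in both. Infarct-lowered genes whose 2 patch means were both below MI numbered 917 (55.2%), against 389 (23.4%) with both above; over all 12487 genes these shares were 37.2% and 40.4%. All of these shares use the MI libraries that also enter the ratio of Sham to MI. Of the 76 genes, 6 were dropped because a patch mean reached 2 times Sham.

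The members ranged from a Sham mean of 2.01 CPM to 543 CPM. A Sham mean under 5 CPM was found for 20 members, 33 lay between 5 and 50 CPM, and 17 were at 50 CPM or above. The median ratio of Sham to MI was 3.18, that of sutured patch to MI 2.13 and that of microneedle patch to MI 1.92. Excluding 1 member with a single MI read, the 3 ratios ranged from 2.01 to 22.6, from 1.52 to 13.9 and from 1.504 to 10.1. The largest patch ratios owed much to few libraries. The ratio of 13.9, of the member ranked 68, came mainly from sutured patch replicates 4 (10.9 CPM) and 1 (5.37 CPM). It was 5.78 without replicate 4. The ratio of 10.1, of the member ranked 61, was 5.90 without microneedle patch replicate 3. Both patch means were at least 2 times MI in 24 members and at least 3 times MI in 6. The genes nearest the edges of the rule had Sham to MI ratios of 2.01 inside and 1.99 outside, sutured patch to MI ratios of 1.52 inside and 1.49 outside, and microneedle patch to MI ratios of 1.504 inside and 1.496 outside.

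**Figure D1:**
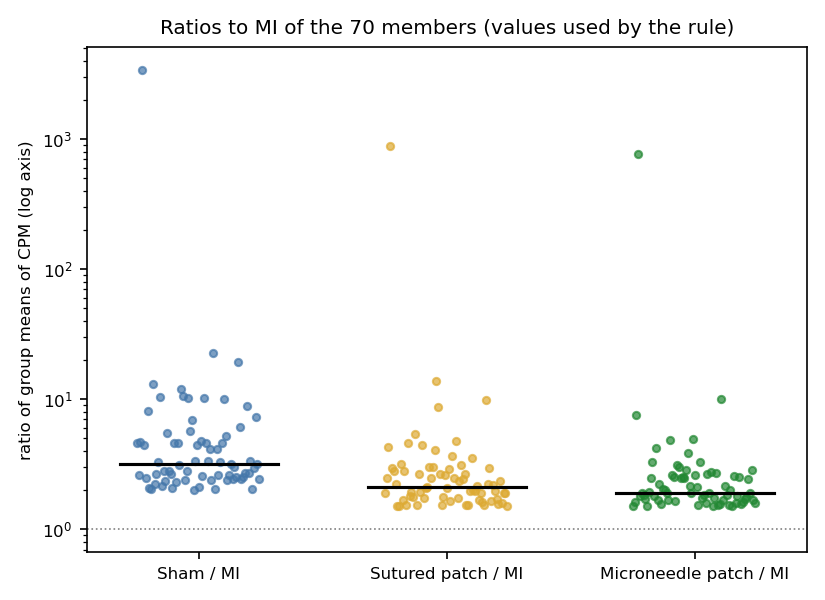
Ratio of each group's mean CPM to the MI mean for the 70 members (points; log axis), with the median as a black line (3.18 for Sham, 2.13 for sutured patch, 1.92 for microneedle patch) and a dotted line at 1. The isolated point at the top of each column is the same member, whose ratio rests on 1 MI read.

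On group means, both patch groups were below Sham for most members. The rule shaped this, because it asked for a higher ratio to MI from Sham than from the patches. A single high Sham library can also raise a Sham mean and so favour membership. The counts and shares that follow therefore describe the chosen members, and nothing is read from them about how far a patch restores the Sham level. Both patch means were below Sham in 50 of 70 members, the sutured patch mean was at or above Sham in 11, the microneedle patch mean in 13, and both in 4. The share of the gap between MI and Sham that a patch group covered had a median of 46.8% in the sutured group and 40.1% in the microneedle group. Both groups covered at least 50% of it in 19 members, and both covered less in 31.

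Summed over the 70 members, CPM ran from 1409 through a median of 2710 to 6328 in Sham, and from 820 to 1076 in MI. The sum ran from 1336 to 2714 in the sutured patch libraries and from 1339 to 2454 in the microneedle patch libraries. The Sham mean was 3233 ± 1890, the MI mean 966 ± 98.7, the sutured patch mean 2038 ± 459 and the microneedle patch mean 1754 ± 456 (SD, n = 6). No MI library overlapped any other group on this sum, which the rule favours, whereas the Sham range overlapped both patch ranges. The MI libraries were close to each other and the Sham libraries were far apart. The same held gene by gene: the median biological coefficient of variation of the members was 62.3% for Sham, 27.7% for MI, 41.9% for the sutured and 46.5% for the microneedle group. Over all genes tested it was 45.1%, 16.8%, 27.2% and 27.5%, lower in each of the 4 groups. The rule acts on group means, which single libraries can move, so it can favour variable genes. Nothing is read from this difference.

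**Figure D2:**
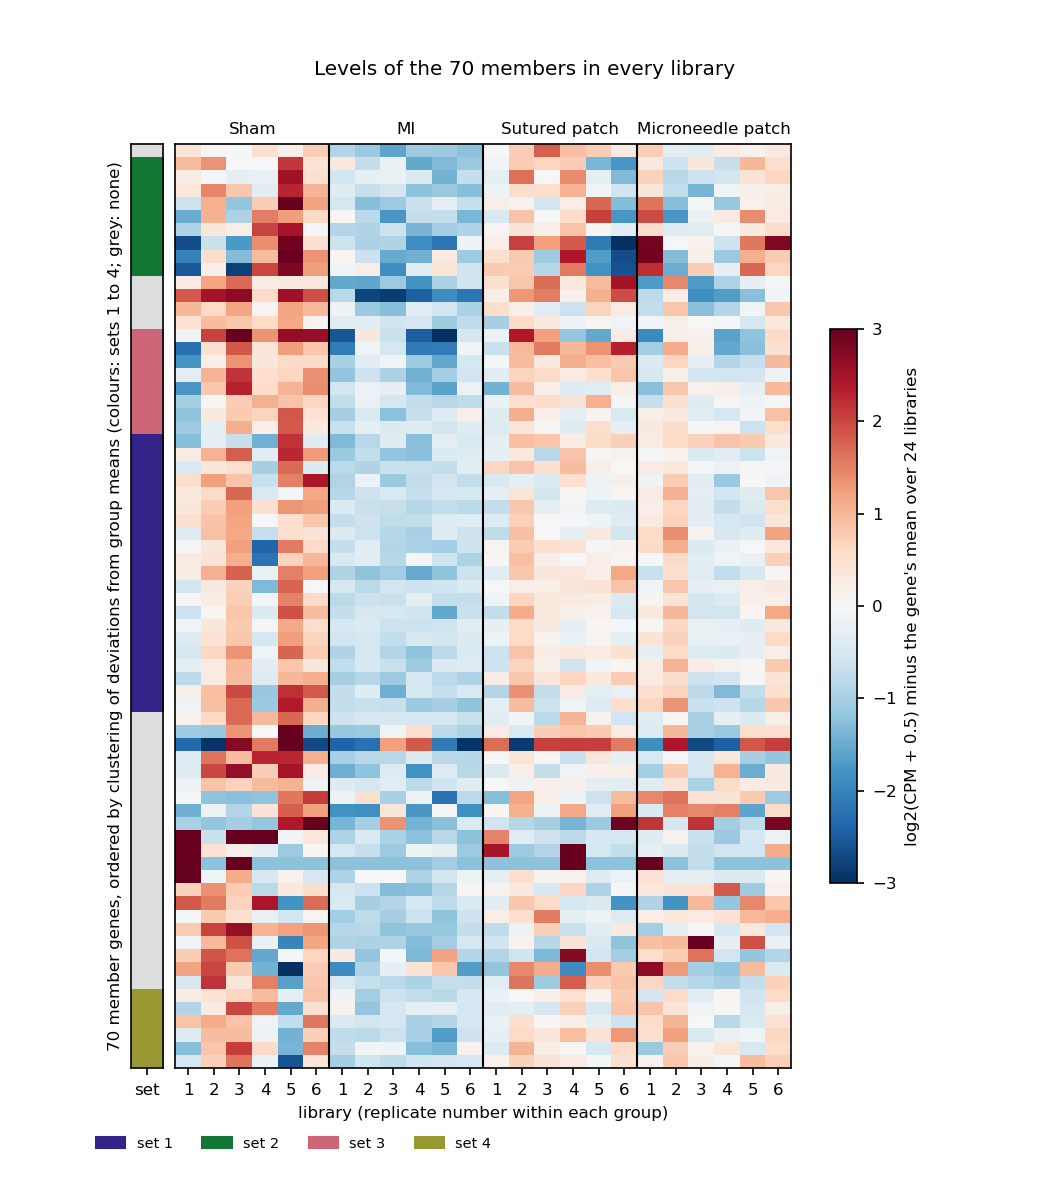
Level of each member (rows) in each of the 24 libraries (columns), as log2(CPM + 0.5) minus the gene's mean over all libraries, with red above and blue below that mean. The MI block is pale blue in nearly every row, while red in Sham falls mostly on replicates 3 and 5, and red with a patch is often strongest in replicate 2 of each patch group.

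Counted library by library, 19 of 70 members (27.1%) had every Sham library above every MI library, against 7.36% of all genes tested. Every sutured patch library lay above every MI library in 21 members (30%, against 7.01% of all genes), and every microneedle patch library did so in 13 (18.6%, against 6.74%). The rule used these contrasts, and nothing is read from the difference. All 18 Sham and patch libraries lay above all 6 MI libraries in 3 members, against 0.144% of all genes. Those 3 are the members ranked 6, 15 and 23 by Sham mean.

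The member ranked 15 had an MI mean of 22.1 CPM, a sutured patch mean of 90.2 above its Sham mean of 62.5, and a microneedle patch mean of 56.1 below it. Its CPM was 48.9 at the lowest, 60.2 at the median and 83.3 at the highest in Sham, and 16.2, 22.8 and 26.6 in MI. With the sutured patch it was 50.1, 83.2 and 174, and with the microneedle patch 39.6, 56.1 and 82.6. The 3 other groups overlapped each other and none reached down to the MI range. Sutured patch replicate 3 held the highest value; without it the ratio of sutured patch to MI was 3.32 in place of 4.08.

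The member ranked 6 covered a wide range in Sham, with 52.1, 117 and 292 CPM as its lowest, median and highest value, and lay at 23.5, 32.4 and 42.9 in MI. It lay at 51.4, 93.0 and 114 with the sutured patch and at 42.9, 44.8 and 72.6 with the microneedle patch. The lowest microneedle patch library and the highest MI library were equal when rounded. Without microneedle patch replicate 2 its ratio of microneedle patch to MI was 1.39 in place of 1.52, below the threshold of 1.5.

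The member ranked 23 had its lowest, median and highest values at 19.5, 29.8 and 51.2 CPM in Sham and at 12.6, 15.9 and 18.9 in MI. With the sutured patch they were 22.5, 29.8 and 87.8, and with the microneedle patch 33.9, 38.4 and 63.2. Both patch medians were at or above the Sham median. Without Sham replicate 2 its ratio of Sham to MI was 1.82 in place of 2.05, below the threshold of 2.

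The member with the highest Sham mean, ENSRNOG00000033517, owed that rank to 1 library. Its CPM in Sham was 57.3 at the lowest, 121 at the median and 2472 in replicate 5, and in MI it was 73.2, 89.9 and 230 at the lowest, median and highest. With the sutured patch it was 119, 234 and 292, and with the microneedle patch 74.97, 177 and 323. The Sham range enclosed every other group. Leaving out microneedle patch replicate 2 took the ratio of microneedle patch to MI from 1.51 to 1.26, below the threshold of 1.5. Leaving out Sham replicate 5 took the ratio of Sham to MI from 4.58 to 1.33. By edgeR's quasi-likelihood test the log2 fold change of MI against Sham was -2.23 (SE 0.71, adjusted p = 0.0129) with that library and -0.40 (adjusted p = 0.492) without it. With only the MI and Sham libraries in the fit, edgeR's adjusted p was 0.0562.

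ENSRNOG00000030712 ranked next in Sham and varied less there. Its lowest, median and highest CPM were 66.5, 285 and 741 in Sham and 66.98, 132 and 189 in MI. They were 126, 189 and 353 in the sutured group, and 79.8, 208 and 290 in the microneedle group. All 4 groups overlapped. Its ratios to MI were 2.56 for Sham, 1.66 in the sutured group and 1.54 in the microneedle group, and the Sham ratio was 1.90 without Sham replicate 3. The sutured ratio was 1.43 without sutured patch replicate 2, and the microneedle ratio was 1.39 without microneedle patch replicate 2. Both are below the threshold of 1.5.

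Both remaining IDs that are printed here had the highest ratios of the lower patch mean to MI, and both rest on few reads or few libraries. ENSRNOG00000014233 held 38 MI reads over the 6 libraries and lay at 0.096, 2.502 and 4.37 CPM in Sham, and at 0, 0.486 and 1.24 in MI. It lay at 0, 1.58 and 6.44 with the sutured patch and at 0, 1.54 and 5.97 with the microneedle patch. The groups overlapped, and its ratios to MI were 4.62 for Sham, 4.46 in the sutured group and 4.86 in the microneedle group. Without sutured patch replicate 5 the sutured ratio was 2.67.

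ENSRNOG00000047706 was present in 4 libraries and close to absent in the other 20. It reached 42.1 CPM in Sham replicate 1, 212 in Sham replicate 3, 66.6 in sutured patch replicate 4 and 57.8 in microneedle patch replicate 1, and no other library exceeded 0.212 CPM. The MI group held 1 read of it in all, against 2203 in Sham, 845 in the sutured group and 806 in the microneedle group. The ratio of pooled rates to MI was 3070 for Sham (95% exact interval 550 to 121314), 846 in the sutured group (151 to 33461) and 770 in the microneedle group (138 to 30437); these intervals cover counting error only. Its membership rests on which 4 libraries hold it, and the low-count filter of the test removed it, along with the members ranked 67 and 68.

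A similar split into present and near absent was found for the member ranked 19. No library lay between 1.94 and 20.2 CPM; 13 libraries were above that gap and 11 below. The high libraries were Sham replicates 3, 4 and 5, MI replicates 3 and 4, sutured patch replicates 1, 3, 4, 5 and 6, and microneedle patch replicates 2, 5 and 6. Every group thus held libraries of both kinds, and the higher patch mean goes with 5 of 6 high libraries in the sutured patch group against 2 of 6 in MI. The same 13 libraries were the 13 highest for ENSRNOG00000033517, with 152 CPM or more against 124 CPM or less in the other 11. A gap of at least 4 times between neighbouring libraries, with 3 or more libraries on each side, was found in 2 of 70 members (2.86%) and in 0.640% of all genes tested. These shares are not like for like. Of the 2 members, ENSRNOG00000047706 did not pass the low-count filter and so could not count among the genes tested.

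**Figure D3:**
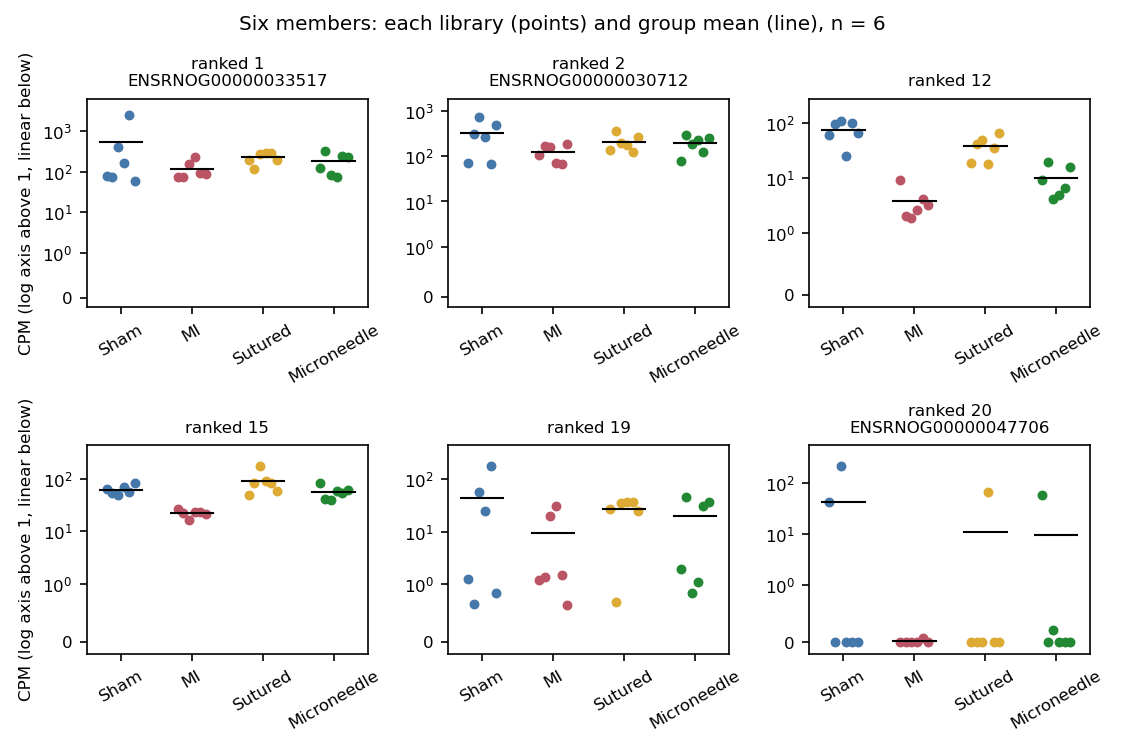
CPM of 6 members in each library (points; axis logarithmic above 1 CPM and linear below) with the group mean as a line, for 6 libraries a group. For the member ranked 15 every MI library is below every other library, and for the member ranked 12 MI is below Sham and sutured patch but overlaps microneedle patch, whereas those ranked 19 and 20 fall into high and near-zero libraries and the top-ranked member is carried by a single Sham library at 2472 CPM.

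Across members the high libraries recurred. The rule asked for high Sham and patch means, which favours genes high in such libraries, so the shares below are descriptions. Sham replicate 5 was the highest Sham library for 29 members (41.4%, against 27.6% of all genes tested) and Sham replicate 3 for 22 (31.4%, against 23.5%). Replicate 2 was the highest sutured patch library for 32 members (45.7%, against 27.4%) and the highest microneedle patch library for 34 (48.6%, against 22.5%). A single library held over 50% of the summed CPM of Sham or of a patch group in 18 of 70 members.

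Deviations from the group means were compared between members to see which vary together within groups. The median Pearson correlation over the 24 libraries was 0.18 among the 2415 pairs of members and 0.021 among all genes tested. Pairs share libraries and their depth. The members were also chosen on the means of these libraries, so nothing is read from the difference. Clustering at a correlation of 0.5 placed 44 members in 4 sets and left 26 outside. The sets were defined on these values and carry no test.

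Set 1, of 21 members, had a median correlation of 0.69. Its geometric mean CPM was 10.3 to 11.98 in MI, 14.8 to 30.1 in the sutured group, 13.7 to 30.7 in the microneedle group and 11.2 to 49.1 in Sham. The highest libraries were Sham replicates 5 (49.1), 3 (39.1) and 6 (32.6), followed by microneedle patch replicate 2 (30.7) and sutured patch replicate 2 (30.1). Sham replicate 4, at 11.2, lay within the MI range.

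Set 2, of 9 members, was dominated by Sham replicate 5 at 30.5, against 2.01 to 8.73 in the other Sham libraries and 1.86 to 3.54 in MI. With a patch it was highest in microneedle patch replicate 1 (13.4) and lowest in sutured patch replicate 6 (1.02), which was below every MI library. Set 3, of 8 members, was highest in Sham replicate 3 (36.2) and lowest in MI replicate 5 (3.78). Set 4, of 6 members, was also highest in Sham replicate 3 (19.3), but there Sham replicate 5 was the lowest of all 24 libraries (2.59). The same Sham library was therefore at opposite ends for sets 2 and 4.

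Leaving out 1 library at a time gave 52 to 89 genes that met the rule. Without Sham replicate 5, 49 of the 70 members still met it; the number was 51 without microneedle patch replicate 2, 52 without sutured patch replicate 2, 56 without microneedle patch replicate 6 and 57 without Sham replicate 3. Without MI replicate 6, 65 members were kept and the total rose to 89. On group medians 30 of the 70 members met the rule, and 34 did so on means without the highest library of every group.

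**Figure D4:**
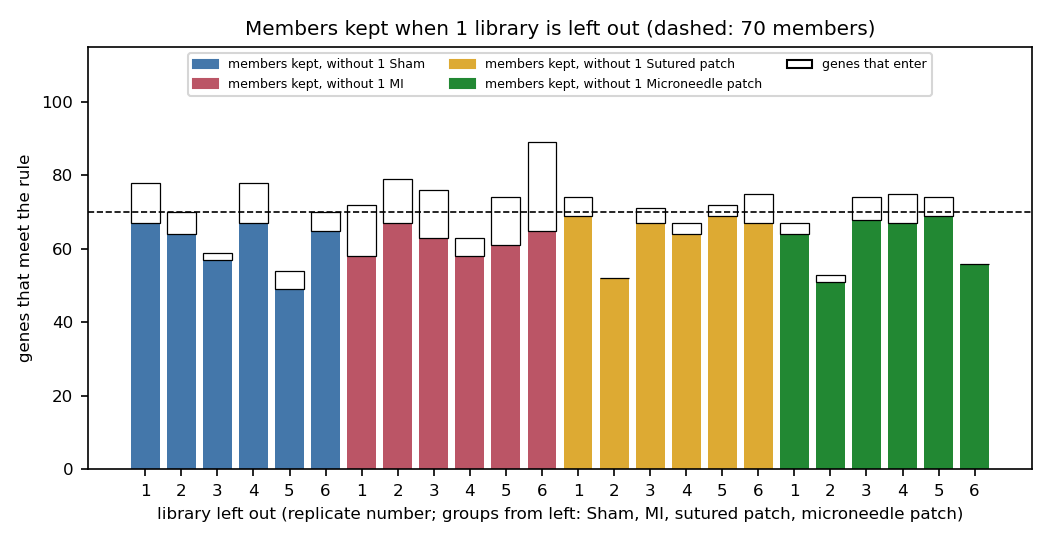
Number of genes that met the rule when the library named on the horizontal axis was left out, split into members kept (coloured by group) and genes that entered (white), with a dashed line at 70. The lowest coloured bars are those without Sham replicate 5 (49), microneedle patch replicate 2 (51) and sutured patch replicate 2 (52).

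In all 24 of these repeats 13 members met the rule, among them those ranked 3, 12, 15 and 51. No single library removed any of them when left out, but their levels could still rest on few libraries. Their highest ratio of Sham to MI, 22.6, was that of the member ranked 40. That member held 32 MI reads, and its Sham and MI libraries overlapped. Without sutured patch replicate 1 its ratio of sutured patch to MI was 1.66 in place of 3.13. The member ranked 12 had a Sham to MI ratio of 19.5. Its lowest, median and highest CPM were 24.9, 80.5 and 109 in Sham and 1.89, 2.95 and 9.25 in MI. With the sutured patch they were 18.2, 38.2 and 65.8, and with the microneedle patch 4.24, 8.06 and 19.6. No Sham or sutured patch library overlapped MI, while microneedle patch libraries did.

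The member ranked 3 lay at 103, 261 and 404 CPM in Sham and at 40.9, 53.7 and 75.1 in MI. It lay at 94.6, 147 and 262 with the sutured patch and at 70.2, 89.4 and 168 with the microneedle patch. The sutured patch and Sham libraries were all above MI. Microneedle patch replicates 4 (70.2) and 1 (74.2) lay below the highest MI library.

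Tests of the contrasts that the rule used are given with their background only, and nothing is read from them. By edgeR's quasi-likelihood test 67 of the 70 members passed the low-count filter, and 58 of the 67 were called lower in MI than in Sham at an adjusted p below 0.05, where 23.2% of the 14540 genes tested were. Higher than MI were 14 members in the sutured group (2.87% of all genes) and 21 in the microneedle group (7.12%). Lower than Sham were 21 in the sutured group (23.8%) and 19 in the microneedle group (25.7%). The sutured patch count against MI was 8 or 9 without MI replicate 1, 4 or 5 or sutured patch replicate 2, 3, 4 or 6, and 24 without Sham replicate 5. The microneedle patch count against MI was 6 to 13 without MI replicate 1, 2, 3, 4 or 5 or microneedle patch replicate 1, 2 or 6. The share of all genes called in these repeats is not given here, so these moves are not read as a trait of the members.

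The contrast between the 2 ways of holding the patch was tested, although the rule bears on it. It set no bound on the ratio of the 2 patch means, but it bounded each mean against MI and Sham, and it left out infarct-lowered genes that reached 1.5 times MI with the sutured patch only (127) or the microneedle patch only (48). The counts below therefore describe members already chosen to be raised in both groups, and do not show that the 2 patches act alike. By edgeR 0 of 67 members were called, against 0.316% of all genes tested (46 genes), and 8 members had an unadjusted p under 0.05, of which 2 were higher and 6 lower with the microneedle patch; 13.7% of all genes tested had one. DESeq2 called 2 members, where it called 2.89% of all genes, and limma-voom called 2, where it called 5.52%. With edgeR 1 member was called without MI replicate 1 (0.389% of all genes) or Sham replicate 4 (0.429%), and 2 without Sham replicate 5 (2.06%). The median log2 fold change of microneedle over sutured patch was 0.05 over the 67 members and -0.0097 over all genes, and 34 of 67 members were positive. Single members ranged from -1.82 to 2.41, with a median SE of 0.43, so the test leaves room for differences of either sign in most of them. In 0 members did every library of either patch group lie above every library of the other; across all genes this held for 0.722% with the microneedle patch higher and 1.06% with the sutured patch higher.

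The member ranked 12 had the smallest adjusted p of the members. Its log2 fold change was -1.82 (SE 0.44, 95% interval -2.73 to -0.91, edgeR adjusted p = 0.0632), and its microneedle patch median of 8.06 CPM compares with 38.2 for the sutured patch. The highest microneedle patch value, 19.6 CPM in replicate 2, overlapped the lowest sutured patch value, 18.2 CPM. The adjusted p was between 0.00382 and 0.0906 under other settings and tools and between 0.0390 and 0.138 when 1 library was left out.

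The member ranked 61 went the other way. Its lowest, median and highest CPM were 0.346, 0.876 and 2.13 with the sutured patch and 1.17, 3.27 and 16.6 with the microneedle patch, against 0, 2.34 and 6.86 in Sham and 0.299, 0.527 and 0.859 in MI. Every microneedle patch library was above every MI library, and the 2 patch groups overlapped. Its log2 fold change of microneedle over sutured patch was 2.41 (SE 0.68, 95% interval 0.998 to 3.81, edgeR adjusted p = 0.0988), and microneedle patch replicate 3 held the value of 16.6; without that library the log2 fold change was 1.62 (edgeR adjusted p = 0.297). The adjusted p was between 0.0120 and 0.172 under other settings and tools and between 0.0390 and 0.297 when 1 library was left out.

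The member ranked 51 leaned towards the sutured patch. It lay at 3.23, 5.08 and 16.6 CPM with the sutured patch and at 0.424, 1.58 and 7.69 with the microneedle patch, against 3.07, 3.18 and 9.27 in Sham and 0.373, 0.725 and 1.503 in MI. The patch groups overlapped, through microneedle patch replicate 2. Its log2 fold change was -1.49 (SE 0.57, 95% interval -2.69 to -0.29, edgeR adjusted p = 0.235), and limma-voom called it (adjusted p = 0.0159). Leaving out 1 library moved edgeR's log2 fold change between -1.05 (without sutured patch replicate 6) and -2.41 (without microneedle patch replicate 2), with adjusted p from 0.422 to 0.0626.

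**Figure D5:**
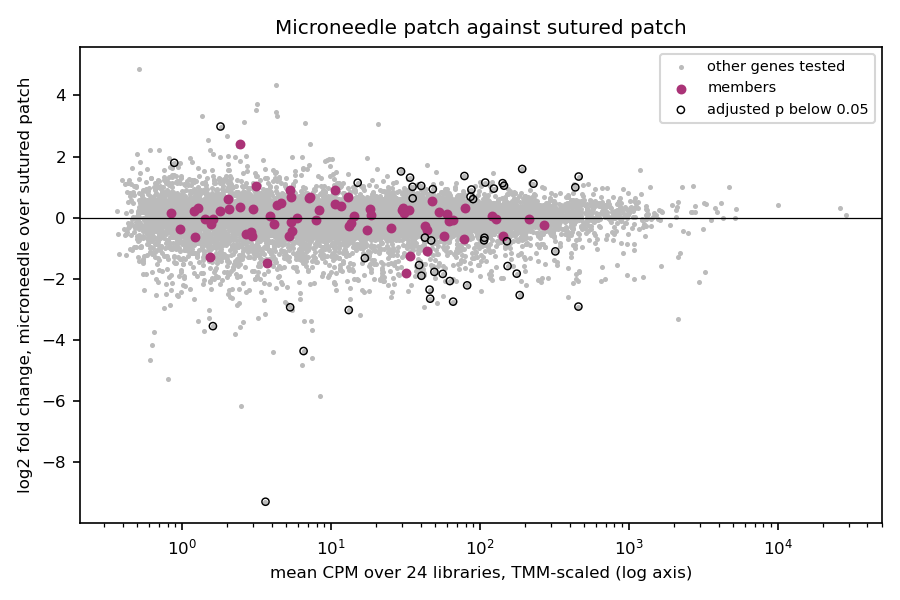
Log2 fold change of microneedle over sutured patch against mean CPM (log axis) for the 14540 genes tested (grey), with the 67 tested members in purple and the 46 genes with an adjusted p below 0.05 circled. Members scatter on both sides of 0 between -1.82 and 2.41, and none is circled.

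For the IDs printed above the contrast was wide. The log2 fold change of microneedle over sutured patch was -0.23 (95% interval -1.65 to 1.18) for ENSRNOG00000033517, -0.03 (-0.97 to 0.91) for ENSRNOG00000030712 and 0.22 (-1.61 to 2.04) for ENSRNOG00000014233. Each interval includes differences of close to 2-fold or more in at least 1 direction.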

How the data were processed

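Per the submitters' processing notes, reads were handled with HISAT2 and featureCounts on the rat build rn6. The authors deposited raw read counts for each Ensembl ID, as whole numbers without normalization. Not given in the sources used here: versions, annotation, strand and the handling of multi-mapping reads; overlapping or near-identical genes may share counts. Columns were matched to samples by the code in each title. CPM uses column totals. Counts were tested with edgeR 4.0.16 (R 4.3.3): filterByExpr (minimum count 10), TMM, 1 fit of 4 group means over 24 libraries (20 residual degrees of freedom), robust quasi-likelihood F tests, Benjamini-Hochberg adjustment over 14540 genes. Intervals of log2 fold changes are 95%, from the SE and the residual degrees of freedom. DESeq2 1.42.0 and limma 3.58.1 were alternatives. The test was also run on simulated data in which all groups shared 1 spread per gene. The groups here differ in spread, so that run does not check the test under unequal spread.

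The members and lists were chosen with earlier results of these data known. Without symbols (0 of 32883 IDs matched the RefSeq table at hand), the naming rule gave the 2 IDs with the highest Sham mean and the 2 with the largest ratio of the lower patch mean to MI; other members are called by Sham rank and were picked after their values were seen. The planned gene and marker lists were not run for the same reason, and no sequence is shown. The Sham replicates 4 and 5 alternative and the removal of each group's highest library were chosen after seeing the data. Replicate numbers were not treated as pairing the samples.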

Additional observations from a re-analysis of the deposited data

Results flagged for a closer look

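In each group of 6 libraries, the highest or lowest library was compared with its nearest neighbour for the 12 members whose values are shown and for the sum over all members, and 12 of 52 groups held a library that stands away from the rest by Dixon's criterion (the gap to the neighbour over the whole range). The criterion's nominal level of about 1 group in 20 does not apply to these untransformed CPM. A group of zeros with 1 nonzero library, as in ENSRNOG00000047706, is always flagged. The members were also picked after their values were seen, so nothing is read from the number of flags.

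In Sham these were ENSRNOG00000033517 at 2472 CPM (replicate 5), the member ranked 19 at 179 CPM (replicate 5) and ENSRNOG00000047706 at 212 CPM (replicate 3). In MI the member ranked 12 stood out at 9.25 CPM (replicate 1), and ENSRNOG00000047706 at 0.0752 CPM, which is 1 read. In the sutured patch group the members ranked 15 and 23 stood out in replicate 3, at 174 and 87.8 CPM, ENSRNOG00000047706 at 66.6 CPM (replicate 4), and the member ranked 19 on the low side at 0.691 CPM. In the microneedle patch group ENSRNOG00000047706 stood out at 57.8 CPM (replicate 1), the member ranked 51 at 7.69 CPM (replicate 2) and the member ranked 61 at 16.6 CPM (replicate 3).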

How the results depend on the processing

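The number of genes that met the rule moved from 70 to 39 on group medians, 24 with both patches at least 2 times MI and 40 without the highest library of every group, and was 52 to 89 when 1 library was left out. For the sutured patch against MI the 14 called members became 6 at an adjusted p below 0.01, 9 without a low-count filter, 27 with only the 2 groups in the fit, 30 by limma-voom and 26 without Sham replicates 4 and 5. For the microneedle patch against MI the 21 became 4, 11, 33 and 32 under the first 4 of these settings. With the replicate number as a block these counts were 15 and 20, and that for MI against Sham was 53 in place of 58. Leaving out 1 library gave 8 to 24, 6 to 30 and, for MI against Sham, 53 to 61. The share of all genes called under each of these settings is not given here. Nothing about the members is therefore read from the moves in these counts. Between the 2 patches the count of 0 (0.316% of all genes called) became 1 with the replicate block (1.09%) and 2 by limma-voom (5.52%). It was also 2 by DESeq2 (2.89%) and without Sham replicates 4 and 5 (3.37%). When 1 library was left out it was 0 to 2, where 0% to 2.06% of all genes were called. Libraries of different groups with the same replicate number had a median correlation of 0.10 (-0.14 to 0.44), with 19 of 36 pairs over 0.1. For different numbers the median was -0.03 (-0.49 to 0.415), with 37 of 180 pairs over 0.1. Same-numbered libraries were thus more alike at the median, and 9 of 24 libraries correlated best with their own number. The ranges overlapped, and the pairs share libraries. Whether the number marks a pairing or shared handling was not tested, and these correlations cannot settle it. The main fit left the number out. With it as a block, the member ranked 12 was called between the 2 patches (edgeR adjusted p = 0.0293). The direction for ENSRNOG00000033517 in MI against Sham reversed by limma-voom (log2 fold change 0.13, adjusted p = 0.813), and with the replicate block it was -1.21 (edgeR adjusted p = 0.167). Microneedle over sutured patch reversed for ENSRNOG00000030712 by limma-voom (0.13) and on leaving out 1 library (-0.20 to 0.19), and for ENSRNOG00000014233 on leaving out 1 library (-0.34 to 0.92). The cause was not tested. With all libraries thinned to the shallowest total, 76 genes met the rule, of which 55 were members. A Sham mean under 5 CPM was found for 20 members, and the part of Sham depth in their values was not tested.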
